A study of Mus musculus with 6 samples.

Results

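The 10 genes described here encode receptors that recognise molecules of microbes and the adaptors that carry their signals inside the cell. They were chosen by gene symbol: the Toll-like receptors Tlr2, Tlr3, Tlr4, Tlr5 and Tlr6, their adaptor Myd88, the NOD-like receptors Nod1, Nod2 and Nlrp10, and the inflammasome adaptor Pycard. All 10 have a row in the deposited table of 17554 genes. The corneal epithelial layer of 2-month-old mice served for bulk RNA-seq, which reads the pooled RNA of all cells of a sample. The engineered lines had been crossed repeatedly to C57BL/6 mice, and the study's normal mice were on that background. The 3 control samples are labelled WT, and their exact genotype is not given. The 3 mutant samples are labelled Rela-/- and came from Krt14-Cre; Rela f/f mice, which lose the floxed part of Rela, the gene of the RelA subunit of NF-κB, in cells that use the keratin 14 promoter. Deletion is thus restricted to K14+ epithelium and its descendants, but it is constitutive and also takes place in the conjunctiva, the skin and the oral mucosa, so the cornea is not the only altered tissue of these mice. The samples of a genotype were independent biological samples.

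Toll-like receptors sit in the cell membrane or in endosomes and bind bacterial lipids, flagellin or nucleic acids, whereas Nod1 and Nod2 lie in the cytosol and bind fragments of peptidoglycan. Both kinds pass the signal through adaptors and kinases to the IκB kinases, which release NF-κB dimers, RelA among them, to enter the nucleus. The corneal epithelium is an outer surface that meets microbes directly, and these receptors are known to start its inflammatory response to infection.

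Total expected counts ranged from 19492942 to 19733834 per sample, and 3 counts, taken as the least that shows a gene, correspond to 0.152 to 0.154 CPM (counts scaled to a common library total). This limit covers counting error only. Of the 17554 genes, 12667 passed a filter on low counts and were compared with edgeR's quasi-likelihood test. Rela was at 33.43 to 36.47 FPKM (fragments scaled by transcript length and sample total) in the controls and at 4.93 to 5.72 FPKM in the mutants, so the labels hold in all 6 samples. Krt12, the keratin that defines corneal epithelium, had the most counts in each sample and did not pass the test (log2 fold change -0.15, adjusted p = 0.263 by edgeR's test with Benjamini-Hochberg adjustment). Krt14, a keratin of basal cells, was higher in the mutants (log2 fold change 3.32, adjusted p = 1.06e-05). Aldh3a1, another of the 7 corneal epithelial markers listed, was lower (log2 fold change -0.25, edgeR adjusted p = 0.0466). Summed, the 7 markers were at 88500 to 95740 CPM in controls and 80450 to 87270 CPM in mutants. The mutant sample 1 stood apart from the other mutants on the second principal component, at 24.15 against -9.53 and -20.65, so values without it are given for the calls that it moved by over 1.5 times.

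Nod2 was the member that changed most. Its mean level was 0.343 ± 0.0451 FPKM in controls and 1.02 ± 0.0493 FPKM in mutants (SD, n = 3). Myd88, the adaptor shared by most Toll-like receptors, rose by a smaller fold, and Tlr2, Tlr3, Tlr4, Tlr5 and Pycard did not pass the test. Of the 10 members, 8 passed the filter on low counts, and 2 of the 8 were higher in the mutants at an adjusted p under 0.05 (edgeR's quasi-likelihood test, Benjamini-Hochberg adjustment over all genes tested), where the share over all genes tested was 7.82%. None of the 8 was lower at that threshold, where the share over all genes was 5.42%. At an unadjusted p under 0.05 edgeR counted 1 lower member, Nod1, beside 13.0% of all genes, and DESeq2 counted 0 lower at an adjusted p under 0.05, beside 5.94% of all genes. The study calls a gene differentially expressed when it changes at least 2-fold and its adjusted p does not exceed 0.001. By this rule 1 of the 8 was called, Nod2, which was higher, beside 1.37% of all genes tested (1.31% higher and 0.0553% lower). The median log2 fold change of the 8 was 0.08, and that of all genes tested was -0.0028.

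The sequences just upstream of the start sites of the 2 members that rose are shown beside those of the 2 members that hold an NF-κB consensus decamer there, since the deleted gene encodes a factor that binds such sites. They are from RefSeq on GRCm38.p6, cover 250 bases before the start site, and are written 5′ to 3′ on the strand of the gene. Capitals mark matches to the decamer on either strand. The windows are chr8:88647097-88647346 (plus strand) for Nod2, chr9:119340019-119340268 (minus strand) for Myd88, chr3:83841609-83841858 (minus strand) for Tlr2 and chr8:45410381-45410630 (minus strand) for Tlr3.
Nod2: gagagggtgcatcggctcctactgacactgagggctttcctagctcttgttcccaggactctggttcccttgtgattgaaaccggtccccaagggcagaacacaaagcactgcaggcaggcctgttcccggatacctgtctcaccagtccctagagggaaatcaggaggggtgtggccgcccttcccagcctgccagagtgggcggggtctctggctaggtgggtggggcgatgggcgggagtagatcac
Myd88: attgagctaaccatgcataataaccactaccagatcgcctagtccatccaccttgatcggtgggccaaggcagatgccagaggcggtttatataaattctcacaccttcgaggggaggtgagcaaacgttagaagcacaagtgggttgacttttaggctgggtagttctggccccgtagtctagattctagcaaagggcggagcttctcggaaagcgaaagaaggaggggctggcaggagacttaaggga
Tlr2: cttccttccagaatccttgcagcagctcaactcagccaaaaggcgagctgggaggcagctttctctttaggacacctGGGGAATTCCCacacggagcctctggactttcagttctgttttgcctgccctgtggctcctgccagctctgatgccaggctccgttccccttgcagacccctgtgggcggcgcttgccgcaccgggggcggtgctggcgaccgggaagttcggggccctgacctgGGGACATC
Tlr3: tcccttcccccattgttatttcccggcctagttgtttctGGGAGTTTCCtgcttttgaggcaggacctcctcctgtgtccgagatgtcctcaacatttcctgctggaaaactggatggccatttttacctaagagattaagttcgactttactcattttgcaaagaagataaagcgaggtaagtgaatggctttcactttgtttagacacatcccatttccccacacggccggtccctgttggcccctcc
Of the 10 members, 8 have a window in the RefSeq table, which runs from 250 bases before to 50 bases after the start. The decamer was found in 2 of these 8. Tlr2 holds it at 3 places, which begin at positions -173, -172 and -8 counted from the start site, so that the first pair overlap and the last runs past the end of the stretch shown. Tlr3 holds 1 match, which begins at position -211. Nod2, Myd88, Nod1, Tlr5, Tlr6 and Pycard have none in this window. Over all genes with a window, 9.55% hold at least 1 match. A match is a description of the letters and not a bound site. Neither Tlr2 nor Tlr3 passed the test of expression.

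**Figure D1:**
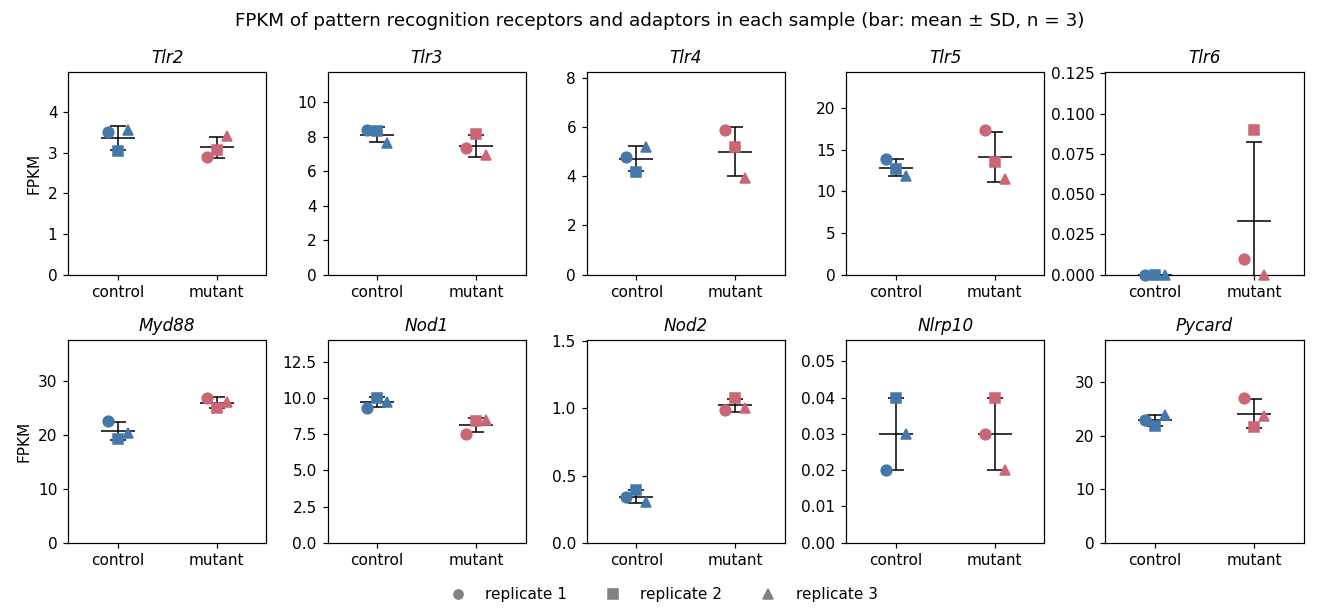
FPKM (vertical axis, a separate scale from 0 for each gene) of the 10 members in the 3 control samples (blue) and 3 mutant samples (red), with marker shapes for the replicate number, horizontal bars for the mean and whiskers for the SD. The mutants lie above the controls for Nod2 (0.99 to 1.08 against 0.3 to 0.39) and Myd88 (24.93 to 26.89 against 19.29 to 22.57) and below them for Nod1 (7.55 to 8.48 against 9.35 to 10.04), and the other groups overlap.

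The Toll-like receptors differed in level far more than between genotypes. Tlr5, the receptor of bacterial flagellin (chr1:182954752-182976429 on GRCm38), was the highest of the 5 in both genotypes. Its level was 13.93, 12.71 and 11.91 FPKM in controls 1 to 3 and 17.40, 13.53 and 11.44 FPKM in mutants 1 to 3. The mutants held both the highest and the lowest of the 6 values. Its fold change was 1.10 with a 95% interval of 0.880 to 1.36 (edgeR adjusted p = 0.588).

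Tlr3 (chr8:45395665-45411949), an endosomal receptor of double-stranded RNA, came next, with 8.39, 8.30 and 7.60 FPKM in controls and 7.33, 8.12 and 6.91 FPKM in mutants. The groups overlapped through mutant 2. The fold change was 0.918 (95% interval 0.802 to 1.05, edgeR adjusted p = 0.396). Some 7.32% of the exon bases of Tlr3 overlap Gm45542 on the opposite strand, and the sources used here do not state whether reads were counted by strand. Unc93b1, a chaperone that carries endosomal Toll-like receptors such as Tlr3 from the endoplasmic reticulum, fell from 22.75 ± 0.841 to 17.46 ± 0.377 FPKM (SD, n = 3, log2 fold change -0.37, edgeR adjusted p = 0.00961).

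Tlr4 (chr4:66827551-66846581), the signalling receptor of lipopolysaccharide, was at 4.78, 4.16 and 5.17 FPKM in controls and 5.88, 5.17 and 3.92 FPKM in mutants. Mutant 1 was the highest and mutant 3 the lowest of all 6. The fold change was 1.06 (95% interval 0.839 to 1.34, edgeR adjusted p = 0.761). Its coreceptor Cd14, which hands lipopolysaccharide to Tlr4, was higher in the mutants, at 1.08, 1.06 and 0.93 FPKM in controls against 2.05, 1.49 and 1.63 FPKM (log2 fold change 0.75, edgeR adjusted p = 0.0479). That call rests on 30 to 66 counts per sample and was lost without any 1 of the 6 samples (adjusted p up to 0.147). Ly96, the partner that binds lipopolysaccharide together with Tlr4, was at 7.35, 7.31 and 8.53 FPKM against 13.80, 10.83 and 8.89 FPKM. The groups did not overlap, but the difference did not pass (log2 fold change 0.53, edgeR adjusted p = 0.101).

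Tlr2 (chr3:83836272-83841824) recognises bacterial lipoproteins as a dimer with Tlr1 or Tlr6. It was at 3.51, 3.03 and 3.56 FPKM in controls and at 2.90, 3.07 and 3.42 FPKM in mutants, which overlap. The fold change was 0.927 (95% interval 0.766 to 1.12, edgeR adjusted p = 0.608). Its partners differed in level. Tlr1 was at 1.73, 1.42 and 1.55 FPKM in controls and at 1.77, 1.99 and 0.94 FPKM in mutants, and it did not pass (edgeR adjusted p = 0.897). Tlr6 (chr5:64952030-64971140) had 0.31, 0 and 0 expected counts in controls and 0.87, 6.45 and 0 in mutants. The value of mutant 2 is above the limit of 3 counts and the other 5 are below it, and Tlr6 did not pass the filter and was not tested across genes. An exact two-sided permutation test of its FPKM gave p = 0.4, and the smallest p that 3 samples against 3 allow is 0.1. Of the 50-base windows of Tlr6, 12.3% also lie in Tlr1, and expected counts divide such reads between both genes, so the whole of the Tlr6 signal is uncertain.

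Summed over the 5 members of the family, Toll-like receptor FPKM was 29.0 ± 1.38 in controls and 29.7 ± 3.92 in mutants (SD, n = 3), a difference smaller than either SD (exact permutation p = 0.8). The other Toll-like receptors of the table, Tlr7, Tlr9, Tlr11, Tlr12 and Tlr13, had at most 3 counts in each sample.

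Myd88 (chr9:119335988-119340040) carries the signal of Tlr2, Tlr4, Tlr5 and Tlr6 to the IRAK kinases. It was at 22.57, 19.29 and 20.40 FPKM in controls and at 26.89, 24.93 and 26.06 FPKM in mutants. All 3 mutants were above all 3 controls. The mean rose from 20.75 ± 1.67 to 25.96 ± 0.984 FPKM (SD, n = 3), a fold change of 1.25 with a 95% interval of 1.10 to 1.42 (log2 fold change 0.32 ± 0.0817 SE, edgeR adjusted p = 0.031). The call held in each of the 8 other settings with all 6 samples, but it was lost without control 2, control 3 or any 1 of the mutants, with adjusted p of 0.115, 0.0956, 0.0511, 0.063 and 0.0561, and held without control 1 (0.0406). Some 11.3% of the exon bases of Myd88 overlap Acaa1a on the opposite strand. Acaa1a, an enzyme of fatty acid oxidation, was at 23.98 to 24.46 FPKM in controls and 19.04 to 22.45 FPKM in mutants and did not pass (log2 fold change -0.25, edgeR adjusted p = 0.0856). Whether reads of the overlap entered the Myd88 values was not tested.

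The other TIR adaptors did not pass. Tirap, which brings Myd88 to the membrane, had a log2 fold change of 0.11 (edgeR adjusted p = 0.51). Ticam1, the adaptor of Tlr3, had a log2 fold change of 0.29 (edgeR adjusted p = 0.178). Per unit of the receptors that use it, Myd88 FPKM divided by the sum of Tlr2, Tlr4, Tlr5 and Tlr6 FPKM was 1.02, 0.969 and 0.988 in controls and 1.03, 1.14 and 1.39 in mutants. The mutants lay above the controls, but mutant 1 only just, and the exact permutation p was 0.1, the smallest possible.

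The NOD receptors lay on opposite sides of their controls. Nod2 (chr8:88647280-88694610), the sensor of muramyl dipeptide, had 31, 35 and 27 counts in controls and 90, 98 and 91 counts in mutants. Per length this was 0.34, 0.39 and 0.30 FPKM against 0.99, 1.08 and 1.00 FPKM. The lowest mutant was above the highest control, and the mutants differed little from each other. The fold change was 2.98 with a 95% interval of 2.24 to 3.97 (log2 fold change 1.58 ± 0.185 SE, edgeR adjusted p = 0.00064). Leaving out any 1 sample kept the log2 fold change between 1.499 and 1.667 and the adjusted p at or below 0.00564. Without 5 of the 6 samples in turn it was above the study's threshold of 0.001, namely without control 1 (0.0043), control 2 (0.00453), control 3 (0.00564), mutant 2 (0.00352) or mutant 3 (0.00172), and it was 0.000951 without mutant 1. Nod2 stayed a scarce transcript, at the 32.0 percentile of genes in controls and the 38.0 percentile in mutants.

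Nod1 (chr6:54923942-54972672), the sensor of diaminopimelic acid peptides, was at 9.35, 10.04 and 9.74 FPKM in controls and at 7.55, 8.41 and 8.48 FPKM in mutants. All mutants were below all controls. The means were 9.71 ± 0.346 and 8.15 ± 0.518 FPKM (SD, n = 3), a fold change of 0.840 with a 95% interval of 0.744 to 0.947. The unadjusted p was 0.00934, but the edgeR adjusted p of 0.0623 did not pass. Among the 8 tested members, 2 had mutants wholly above controls and 1, Nod1, wholly below. Over all genes tested these shares were 17.5% and 15.2%, or 32.6% together.

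The ratio of Nod1 to Nod2 FPKM was 27.5, 25.74 and 32.47 in controls and 7.63, 7.79 and 8.48 in mutants. Nod2 made up 3.41% ± 0.385 of the summed FPKM of both receptors in controls and 11.2% ± 0.552 in mutants (SD, n = 3). The groups were far apart, and the exact permutation p of 0.1 is the smallest that this design allows. The sum itself was 10.05 ± 0.37 FPKM in controls and 9.17 ± 0.546 FPKM in mutants (exact permutation p = 0.1), and Nod1 was the more abundant of both in each sample.

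Ripk2, the kinase that both NOD receptors recruit through their caspase recruitment domains, fell. It was at 9.48, 9.12 and 9.88 FPKM in controls and at 6.30, 6.27 and 6.25 FPKM in mutants. The groups did not overlap and the mutants lay close together. The fold change was 0.683 (95% interval 0.597 to 0.781, log2 fold change -0.55 ± 0.0868 SE, edgeR adjusted p = 0.00314), and it passed in all 14 alternatives, with adjusted p of at most 0.0215. The sensor-to-kinase ratio, Nod1 over Ripk2 FPKM, was 1.02 ± 0.0663 in controls and 1.30 ± 0.0873 in mutants (SD, n = 3, exact permutation p = 0.1).

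**Figure D2:**
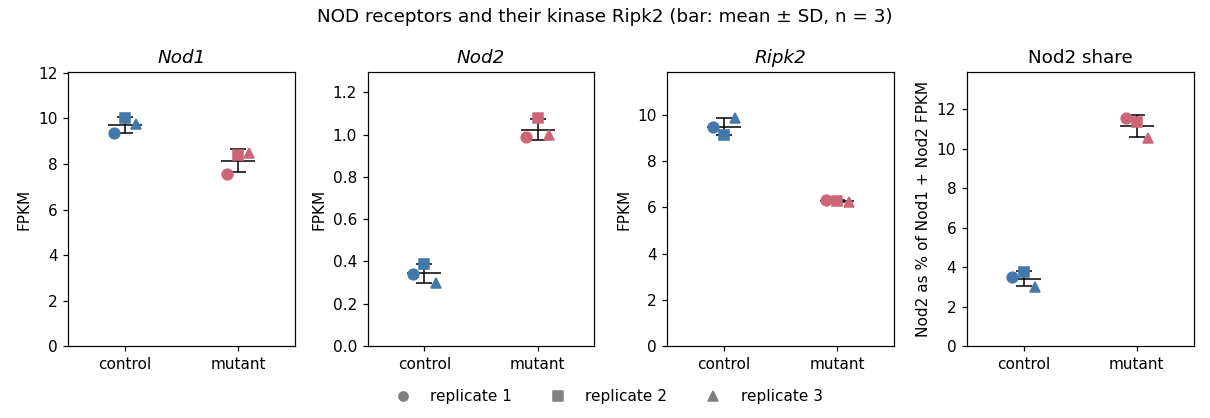
FPKM (vertical axes from 0) of Nod1, Nod2 and Ripk2 and the share of Nod2 in the summed FPKM of Nod1 and Nod2 (percent, right panel) in the 3 control (blue) and 3 mutant (red) samples, with horizontal bars for the mean and whiskers for the SD. The mutants lie below the controls for Nod1 and Ripk2 and above them for Nod2, whose share is 3.41% in controls and 11.2% in mutants.

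Pycard (chr7:127988224-127996598), also called ASC, joins inflammasome sensors to caspase 1 through a pyrin domain and a caspase recruitment domain. It was among the most abundant members, at 23.00, 21.72 and 23.85 FPKM in controls and 27.09, 21.60 and 23.71 FPKM in mutants. Mutants held both the highest and the lowest value. The fold change was 1.05 (95% interval 0.905 to 1.23, edgeR adjusted p = 0.662). Some 12.8% of its exon bases overlap Gm45205 on the opposite strand. Nlrp10 (chr7:108921853-108930158), a NOD-like receptor without leucine-rich repeats, had 1.4, 3.91 and 2.87 expected counts in controls and 3, 3.85 and 2.06 in mutants. Control 2 and mutant 2 lay just above the limit of 3 counts, and the other samples at or below it. Nlrp10 did not pass the filter and was not tested across genes (exact permutation p = 0.8 on FPKM).

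Ordered by FPKM, the controls ran Pycard, Myd88, Tlr5, Nod1, Tlr3, Tlr4, Tlr2, Nod2, Nlrp10 and Tlr6. Only the ranges of Pycard and Myd88 overlapped among neighbours in that order. In the mutants Myd88 stood before Pycard, with overlapping ranges, Nod1 and Tlr3 also overlapped, and so did Tlr6 and Nlrp10, while the other neighbours stayed apart. For 7 of the 8 tested members, all but Nod2, the whole 95% interval of the fold change lay within 1.5-fold of no change in either direction. Without mutant 1 the log2 fold changes of Tlr4, Tlr5 and Pycard turned to -0.06, -0.05 and -0.02, and none of them passed with or without it.

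**Figure D3:**
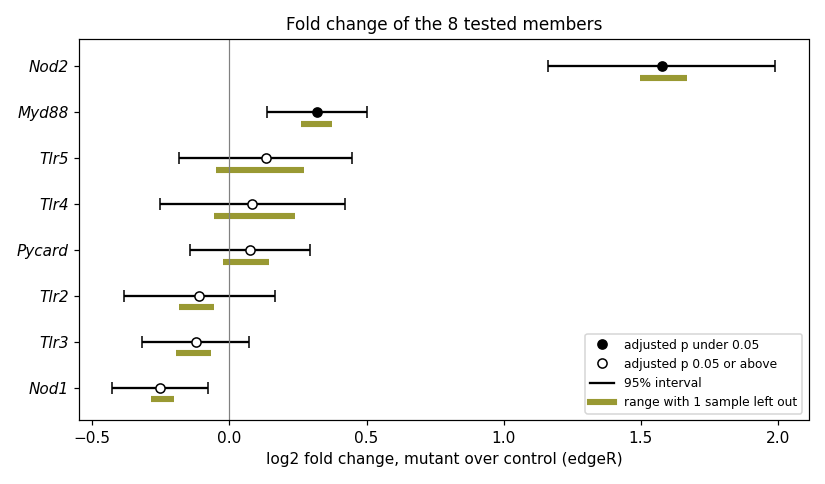
Log2 fold change of mutants over controls (horizontal axis, edgeR) for the 8 tested members, with 95% intervals, filled points for an adjusted p under 0.05 and a bar under each for the range over the 6 fits that leave out 1 sample. Nod2 (1.58) and Myd88 (0.32) are filled, Nod1 (-0.25) is open with an interval below 0, and the bars of Tlr4, Tlr5 and Pycard cross 0.

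By the protein domains that the deposited table names, 6 members carry a TIR domain, namely the 5 Toll-like receptors and Myd88. Of the 5 of these that were tested, Myd88 alone passed the test. A NACHT domain is named for Nod1, Nod2 and Nlrp10, and a caspase recruitment domain for Nod1, Nod2 and Pycard, which were at adjusted p of 0.0623, 0.00064 and 0.662 by edgeR where tested.

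Other genes of the same pathways, 98 listed by their role in these pathways, changed in both directions. Of the 98, 95 are in the table and 72 were tested, of which 12 were higher and 7 lower at an adjusted p under 0.05 (edgeR, adjusted over all genes tested). That is 26.4% against 13.2% of all genes tested. Casp4, Casp12, Il1b, Tmem173 and Nlrc5, all called higher, were under 10 counts in every control and entered the test only through the mutants. When all samples had to reach 10 counts, 66 genes of the list were tested and 14 called, 8 higher and 6 lower. The share over all genes in that fit was not counted. The median log2 fold change of the list was 0.06, with Casp4, which was at 0 in all controls, at its lower bound as well, and -0.0028 over all genes. By edgeR, 1 of the 72, Tmem173, met the study's thresholds, which is near the 1.37% of all genes tested. This count was 0 with the replicate block, with limma on log2(FPKM + 1), with a minimum of 10 counts in every sample, which Tmem173 does not reach, and without any 1 sample except mutant 1. It was 2 without mutant 1 (Tmem173 and Tnfaip3) and 5 with DESeq2, which added Casp4, Casp12, Il1b and Tnfaip3. The shares of all genes past these thresholds in those other fits were not counted. Of the 19 called, 9 kept their call without each sample in turn: Unc93b1, Ripk2, Peli2, Tnfaip3, Tnip2, Casp4, Casp12, Tmem173 and Rel. The other 10 lost it in at least 1 such fit, and 11, 10 and 11 genes of the list were called without control 1, 2 and 3. The shares of all genes called in the fits with a sample left out were not counted. These counts thus do not show whether the list stays above the share over all genes.

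Of the 21 kinases and ligases between receptors and NF-κB, 2 passed edgeR's test, and both were lower. This is 9.52% of the group, below the 13.2% of all genes tested. Besides Ripk2 this was Peli2, a ubiquitin ligase that acts on IRAK kinases, at 8.78 ± 1.05 FPKM in controls and 6.03 ± 0.254 FPKM in mutants (SD, n = 3, log2 fold change -0.54, edgeR adjusted p = 0.00741). Irak1, Irak2, Irak4, Traf6, Tab1, Tab2, Tab3, Map3k7, Chuk, Ikbkb and Ikbkg, of the Myd88 route to the IκB kinases, did not pass. Their log2 fold changes ran from -0.13 (Tab1) to 0.27 (Tab3, edgeR adjusted p = 0.0701). Of 5 accessory proteins tested, 2 were higher and 1 was lower (edgeR), beside 7.82% and 5.42% of all genes. Besides Cd14 and Unc93b1, given above, this was Hsp90b1, the chaperone that folds most Toll-like receptors. Hsp90b1 rose from 109 ± 4.42 to 136.7 ± 11.2 FPKM (SD, n = 3, edgeR adjusted p = 0.0382), a call that held only without mutant 3 when 1 sample was left out (adjusted p up to 0.135).

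Of 11 proteins that brake these pathways, 2 were higher and 1 was lower (edgeR), beside 7.82% and 5.42% of all genes, and the other 8 did not pass. Tnfaip3, also called A20, a deubiquitinase that ends NF-κB signalling and is a known NF-κB target, was at 5.10, 4.72 and 5.05 FPKM in controls and at 3.12, 2.17 and 1.91 FPKM in mutants. Every mutant was below every control (log2 fold change -1.04 ± 0.166 SE, edgeR adjusted p = 0.00345), also without mutant 1 (-1.28, adjusted p = 9.08e-05). Tnip2, which binds Tnfaip3, rose from 8.77 ± 0.34 to 12.86 ± 0.88 FPKM (SD, n = 3, log2 fold change 0.55, edgeR adjusted p = 0.00268). Nlrx1, a mitochondrial member of the NOD-like family, rose from 11.42 ± 0.629 to 14.8 ± 1.32 FPKM (edgeR adjusted p = 0.0249), but not without control 1 or control 2 (adjusted p up to 0.105). Of the 8 transcription factors tested, 2 were higher and 1 was lower (edgeR), beside 7.82% and 5.42% of all genes. Nfkb1 and Rel, which encode other NF-κB subunits, rose, with log2 fold changes of 0.44 and 0.51 (edgeR adjusted p = 0.0174 and 0.00886). Irf7, a factor of interferon genes, fell from 34.16 ± 2.97 to 24.71 ± 4.72 FPKM (SD, n = 3, edgeR adjusted p = 0.0421). The Nfkb1 call was lost without any 1 control (adjusted p up to 0.0744) and the Irf7 call without any 1 control or mutant 2 (up to 0.15).

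In the inflammasome group 3 of 8 tested genes passed (edgeR), all 3 higher, where 7.82% of all genes were, and all from very low levels. All 3 were under 10 counts in every control and entered the test only through the mutants. A call in the lower direction was thus hardly possible for them, and their shared direction carries little weight. Casp4, also called caspase 11, a sensor of lipopolysaccharide in the cytosol, had 0, 0 and 0 counts in controls and 64, 19 and 13 in mutants, at least 10.7-fold higher against 3 counts per control (edgeR adjusted p = 0.0113). Without mutant 1 that bound was 5.29-fold. Its neighbour in the genome Casp12 had 0, 2 and 3 counts in controls and 77, 36 and 16 in mutants (log2 fold change 4.59, edgeR adjusted p = 0.00579). No control was above the limit of 3 counts, so the size of this fold is uncertain, with a 95% interval of 6.79 to 85.5. Set against 3 counts per control, the fold was 14.4. The log2 fold change of Casp12 was 3.86 without mutant 1 and 5.28 without control 3, and it passed in both. Il1b, the cytokine that caspase 1 matures, had 4, 7 and 3 counts in controls and 110, 25 and 14 in mutants (log2 fold change 3.38, edgeR adjusted p = 0.0278). Without mutant 1 the log2 fold change was 2.02, and the call was lost without any 1 control (adjusted p up to 0.106). In each case mutant 1 was the highest. Il18, the other cytokine of this route, was abundant and did not pass, at 81.19 to 98.61 FPKM in controls and 82.5 to 102.17 FPKM in mutants (edgeR adjusted p = 0.935). Among 7 other NOD-like receptors tested, 1 passed, which is 14.3% and near the 13.2% of all genes tested. This was Nlrc5, a regulator of MHC class I genes, which rose from 7, 5 and 7 to 19, 21 and 21 counts (log2 fold change 1.66, edgeR adjusted p = 0.00933), with an adjusted p of 0.0525 without control 2.

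Of 8 sensors of nucleic acid, 2 were higher and 1 was lower (edgeR), beside the same 7.82% and 5.42% of all genes. Tmem173, also called STING, the adaptor of cytosolic DNA sensing, had 4, 9 and 6 counts in controls and 92, 48 and 57 in mutants. All mutants were well above all controls (log2 fold change 3.35 ± 0.387 SE, fold change 10.2 with a 95% interval of 5.57 to 18.5, edgeR adjusted p = 0.000604), and without mutant 1 the log2 fold change was 3.01. Zbp1, a sensor of Z-form nucleic acid, rose from 3.76 ± 1.34 to 7.34 ± 2.00 FPKM (SD, n = 3, edgeR adjusted p = 0.0357). Ddx58, also called RIG-I, the sensor of viral RNA, fell from 22.09 ± 2.03 to 18.04 ± 0.262 FPKM (edgeR adjusted p = 0.0392). Syk, the kinase under C-type lectin receptors, fell by 0.24 on the log2 scale (edgeR adjusted p = 0.0469). Each of the last 3 calls was lost without at least 4 of the 6 samples in turn: Zbp1 without control 2, control 3, mutant 1 or mutant 2 (adjusted p up to 0.0883), Ddx58 without control 1, control 3, mutant 2 or mutant 3 (up to 0.133), and Syk without any 1 control, mutant 2 or mutant 3 (up to 0.137).

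**Figure D4:**
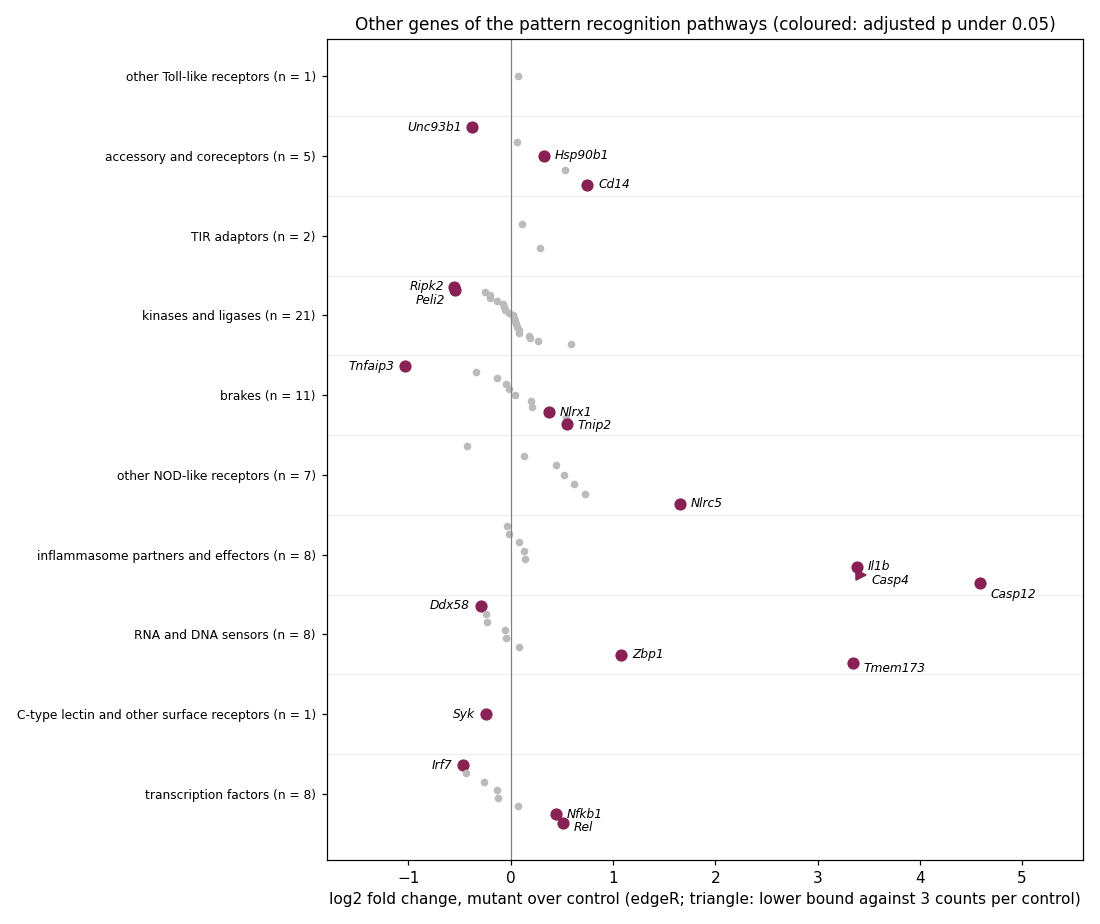
Log2 fold change of mutants over controls (horizontal axis, edgeR) for the 72 tested genes of the pathway list, grouped by role on the vertical axis with the number tested, coloured and named at an adjusted p under 0.05, and a triangle where the value is a lower bound. The 12 higher genes include Casp12, Casp4, Il1b and Tmem173 far to the right, and the 7 lower genes, Tnfaip3 first, lie between -1.04 and -0.24. Casp12, with at most 3 counts in each control, is drawn at its fitted value.

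Leukocytes also carry many of these receptors, and in bulk samples fewer cells of a type and less RNA per cell cannot be told apart. The table has 19 leukocyte markers, of which 7 were tested, and 1 was higher, Laptm5, a lysosomal protein of blood cells, with 8, 10 and 6 counts in controls and 29, 16 and 17 in mutants (edgeR adjusted p = 0.0451). This is 14.3% of the 7, near the 13.2% of all genes tested. The Laptm5 call was lost without any 1 of the 6 samples, and without mutant 3 the marker called was Lyz2, a myeloid enzyme, instead. Lyz2 had 0, 0 and 1 counts in controls and 23.7, 13 and 3.79 in mutants, too low to be tested with all 6 samples. Ly6g lay lower, at 3.27, 2.21 and 4.12 FPKM in controls and 1.81, 1.94 and 2.03 FPKM in mutants, and did not pass (edgeR adjusted p = 0.0954). Cd68 lay higher, at 17.31 to 21.84 FPKM in controls and 22.11 to 24.54 FPKM in mutants, and did not pass (edgeR adjusted p = 0.224). Fcer1g, which was not tested, had 1, 5 and 4 counts in controls and 9, 7 and 10 in mutants. Over all genes tested, mutants lay wholly above controls for 17.5% and wholly below for 15.2%. The summed level of the list was 332.7 to 353.6 CPM in controls and 282.5 to 492.2 CPM in mutants, nearly all of it Itgam and Cd68. Without these it was 9.61 to 12.04 CPM in controls and 11.3 to 14.7 CPM in mutants. Ptprc, which defines leukocytes, had 6, 6 and 1 counts in controls and 14, 2 and 9 in mutants, and 5 of the 19 markers had at most 3 counts in every sample.

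Of 8 stromal markers, 6 had at most 3 counts in every control. Dcn, a collagen-binding proteoglycan of fibroblasts, had 3, 2 and 1 counts in controls and 66, 34 and 14 in mutants (edgeR adjusted p = 0.00507), and Col3a1, a fibrillar collagen, had 1, 0 and 0 counts against 32, 15 and 6. Pdgfra, the most abundant gene of the stromal list, was lower in mutants (log2 fold change -0.78, edgeR adjusted p = 0.00496), and the list summed to 14.4 to 16.9 CPM in controls and 9.58 to 18.8 CPM in mutants. In every control most of that sum was Pdgfra, at 270.13, 323 and 312 counts, so it says little about the other markers. Col1a1 had 1, 1 and 2 counts in controls against 23, 23 and 6 in mutants, and Vim 1, 0 and 2 against 19, 9 and 9. As for Dcn and Col3a1, all mutants lay above all controls, where this held for 17.5% of all genes tested. Only Dcn of these genes was tested, and it entered the test only through the mutants. Of the 2 stromal markers tested, Dcn and Pdgfra, 1 was higher and 1 was lower (edgeR), beside 7.82% and 5.42% of all genes. For Lum, Col1a2 and Kera the groups overlapped. Endothelial markers, of which Pecam1 was the most abundant, summed to 0.102 to 0.307 CPM in controls and 0.460 to 0.709 CPM in mutants. Melanocyte markers, of which Pmel was the most abundant, summed to 10.8 to 12.6 CPM and 11.37 to 12.98 CPM. Markers of conjunctiva and epidermis, mostly Krt13, summed to 2163 to 2549 CPM and 1600 to 1819 CPM. Krt13 itself was lower in mutants (log2 fold change -0.45, edgeR adjusted p = 0.0152). The part of other cell types in the changes of the receptors and their partners was not tested.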

How the data were processed

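Bulk RNA of 6 corneal epithelial samples was sequenced in single-end 50-base reads after removal of rRNA. SOAPnuke (read filter), Bowtie2 2.2.5 (alignment) and RSEM 1.2.12 (values per gene) were run by the authors. The deposited expected counts are neither normalized nor pooled, and 31.5% to 32.2% of a sample's values are not whole, since reads that fit several genes are divided. The authors' deposited FPKM values are scaled by transcript length and sample total. The deposited log2 fold changes, p-values and q-values of the authors' own comparison were not used. The submitters' processing notes name mm9, whereas the table gives GRCm38 positions, which are printed here. The table places Tlr3 and Pycard on the plus strand and GENCODE and RefSeq on the minus strand. All per-sample columns that were mapped were used, and 0 were left over.

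Samples were grouped by the genotype in the labels. Expected counts were rounded and tested with edgeR 4.0.16 in R 4.3.3 (TMM scaling, filterByExpr at its defaults of 10 for the count and 15 for the total, quasi-likelihood test, genotype as the factor), with Benjamini-Hochberg adjustment over the 12667 genes tested. Total expected counts were 19492942 to 19733834 per sample. Exact permutation tests of single values were two-sided (SciPy 1.17.1). The fold of a gene at 0 in all controls was set against 3 counts per control, and for Casp12 this fold is given beside the fitted one. The gene identifiers of 17434 of 17554 genes matched RefSeq identifiers. Shared 50-base windows and exon overlaps were counted in GENCODE transcripts of GRCm38. The statistics were tested on simulated data.

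The text names all 10 members, from the pathway list up to 4 genes per role with the smallest adjusted p under 0.05 and partners of the members, and from each marker list the most abundant gene and up to 3 genes under 0.05. Partners and kinases that did not pass and the genes of the closing observations were named after their values were seen. So were the marker genes Ptprc, Cd68, Fcer1g, Lyz2, Ly6g, Col3a1, Col1a1, Vim, Lum, Col1a2 and Kera. The members and the lists were chosen with earlier results of these data known. Alternatives were DESeq2 1.42.0, upper-quartile scaling, DESeq2 size factors in edgeR, no filter, a minimum of 10 counts that all samples must reach, limma 3.58.1 on log2(FPKM + 1) or log2(FPKM + 0.1), the replicate number as a block, and each sample left out in turn.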

Additional observations from a re-analysis of the deposited data

How the results depend on the processing

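Directions held for Tlr2, Tlr3, Myd88, Nod1 and Nod2 in all 14 alternatives. Nod2 stayed at an adjusted p under 0.05 in all 14 (7.48e-07 to 0.00564, log2 fold change 0.59 with limma on log2(FPKM + 1) to 1.67) and past the study's thresholds in 6. The count of members past those thresholds, 1 by edgeR, was 0 with either limma setting (log2(FPKM + 1), 0, and log2(FPKM + 0.1), 0), 0 with the replicate block and 0 to 1 with a sample left out. With both limma settings the adjusted p of Nod2 (0.00113 and 0.00129) missed 0.001. The count of members at an adjusted p under 0.05, 2 by edgeR, was 1 to 2 with a sample left out, the change being Myd88. Nod1 had adjusted p between 0.0518 and 0.166. The log2 fold change of Tlr4 reversed without control 2 (-0.005254) and without mutant 1 (-0.05802), and those of Tlr5 (-0.04903) and Pycard (-0.02354) without mutant 1. With a sample left out they ranged up to 0.2396 (Tlr4), 0.2716 (Tlr5) and 0.1442 (Pycard). Pathway genes called, 19 by edgeR, were 10 to 21 with a sample left out, where the shares over all genes were not counted. Leukocyte markers called, 1 by edgeR, were 0 with limma on log2(FPKM + 1), 0 with DESeq2, 0 when all samples had to reach 10 counts, 0 with the replicate block and 0 to 1 with a sample left out (Lyz2 in place of Laptm5 without mutant 3). Except where fewer samples entered, the cause was not tested. The replicate numbers did not pair the samples, since deviations of same-numbered samples from their group means correlated at 0.02, 0.05 and -0.05. With the replicate block Nod2 was at an adjusted p of 0.00188, and 2 members stayed under 0.05. Depth limits Tlr6 and Nlrp10, which lie near 3 counts, and the low-count partners.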

Other observations

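Among the 95 pathway genes measured, 23 were too low to be tested across genes, and 9 of these had at most 3 counts in every sample. The mutant sample 1 was the highest of the 6 samples for 9 of the 23. The same share over all genes too low to be tested was not counted. Mutant 1 also had the most genes with at least 1 count, 15836 against 15325 to 15672 in the other samples. The 9 are thus not shown to be particular to these pathways. Casp1, the protease that Pycard recruits, had 9, 4 and 5 counts in controls and 54, 23 and 8 in mutants, so that only mutants 1 and 2 lay above the controls. Nlrp3, an inflammasome sensor that acts through Pycard, had 0, 0 and 1 counts in controls and 6, 1 and 0 in mutants. Clec4d, a C-type lectin receptor of myeloid cells, had 14 counts in mutant 1 and 0 in each of the other 5 samples. Nlrc4, the sensor that responds with Naip proteins to flagellin, had 8.34, 9.03 and 10.15 expected counts in controls and 8.89, 8.79 and 6.20 in mutants, which overlap.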
